A study of Rattus norvegicus with 27 samples.

Results

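Immediate early genes are switched on within minutes of neuronal firing, growth factor or stress signals, without new protein synthesis, and their transcripts decay quickly. Many code for transcription factors, such as the FOS, JUN, EGR and NR4A families, which in turn act on later genes. Others code for proteins that shut the response down again, such as the dual-specificity phosphatases, or that act at the synapse. The comparison described here set the libraries of medial prefrontal cortex (mPFC) with the highest levels of 6 such genes (Fos, Egr1, Arc, Junb, Nr4a1 and Npas4) against the libraries with the lowest, and asked which other genes went with them.

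The tissue came from 27 adult male Wistar rats, an outbred strain, with 1 library per rat. None carried a genetic change, and all had been put through a battery of anxiety tests (the elevated plus-maze, the light-dark box and the open field). The rats came from more than 1 cohort and met the tests in differing orders. The cohort and test order of each library were not used here, and their part in the groups or in the library numbers was not tested. After the last test the rats were left alone for 2 weeks. They were then decapitated in a resting state directly from the home cage, which the labels place early in the active period. There was no control group, and the labels name learned helplessness as the treatment and add acoustic startle and fear conditioning, where the study describes the repeated anxiety tests. The labels and the study also differ in the plane of the brain slice and in the library kit. For each library, the log2(normalized count + 1) values of the 6 genes were averaged into a score. A normalized count is the raw read count divided by the library's median-of-ratios size factor. The 9 libraries with the highest and the 9 with the lowest score, 18 of 27, were compared, so the members were chosen by the measured levels of these 6 genes. The high group held libraries 12, 31, 51, 24, 26, 54, 34, 53 and 15, and the low group held libraries 22, 13, 19, 18, 35, 47, 52, 32 and 17. These are not groups of the study. The same libraries supplied both the score and the other genes, so a p-value here states how closely a gene goes with the score and not the effect of a treatment.

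The score ran from 8.56 in library 17 to 10.01 in library 12, and its mean was 9.63 in the high group and 8.67 in the low group. The last high library, 15, had a score of 9.33 and the next library, 6, had 9.29. The first low library, 22, had 8.82 and the library just above it, 20, had 8.86. These steps of 0.0413 and 0.038 were small beside the whole range of 1.45, so the libraries formed a gradient and not separate clusters.

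Library totals part at library number 31, so the balance of the groups over that number was examined. Both groups held 5 libraries numbered up to 31 and 4 numbered from 32 (two-sided Fisher's exact test, p = 1), and the 9 libraries between them held 6 and 3. Total counts ran from 6496818 to 10948982 in the high group (median 8168801) and from 6850012 to 12238280 in the low group (median 8568317). The means did not differ beyond the spread between libraries (difference of high minus low -473705 reads, two-sided exact permutation test, p = 0.585). To check the tissue label, excitatory neuron markers were examined, and these 12 genes summed to between 18168 and 27197 normalized counts in the low libraries and between 21511 and 27168 in the high libraries. Markers of striatal projection neurons were also present, at sums of 3476 to 4322 in the high and 3487 to 4066 in the low libraries. In bulk tissue, fewer cells of a type and less RNA per cell cannot be told apart.

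The proximal promoters of 3 genes that passed the test across all other genes, Btg2, Ccn1 and Dusp1, are shown with that of Egr2. Egr2 passed it once the library number was in the model, as did Egr4 and Fosb, whose sequences are not shown. Promoters were searched because immediate early genes are known to be read through cAMP response elements (CRE, bound by CREB) and CArG boxes (bound by serum response factor). Of 14 genes looked up (the 6 score genes with Ccn1, Dusp1, Btg2, Fosb, Egr2, Egr4, Trib1 and Ier2), 11 were in the RefSeq promoter table of GRCr8. Each sequence is the 250 bases before the annotated start, read 5′ to 3′ on the gene's strand. Capitals mark the full CRE (TGACGTCA), its half-site (TGACG on either strand, which every full CRE also contains) and the CArG box.
Dusp1, chr10:17184603-17184852, plus strand: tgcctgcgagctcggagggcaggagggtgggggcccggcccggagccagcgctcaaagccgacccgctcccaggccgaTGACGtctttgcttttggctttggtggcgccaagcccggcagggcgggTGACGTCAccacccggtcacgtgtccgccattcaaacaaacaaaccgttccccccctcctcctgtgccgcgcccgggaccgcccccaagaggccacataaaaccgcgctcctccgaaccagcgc
Btg2, chr13:48087691-48087940, minus strand: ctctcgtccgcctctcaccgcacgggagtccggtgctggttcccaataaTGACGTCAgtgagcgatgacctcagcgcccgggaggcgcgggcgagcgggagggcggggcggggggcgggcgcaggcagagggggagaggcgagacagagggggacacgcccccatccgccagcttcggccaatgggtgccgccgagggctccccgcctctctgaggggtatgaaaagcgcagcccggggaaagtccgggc
Egr2, chr20:21054442-21054691, minus strand: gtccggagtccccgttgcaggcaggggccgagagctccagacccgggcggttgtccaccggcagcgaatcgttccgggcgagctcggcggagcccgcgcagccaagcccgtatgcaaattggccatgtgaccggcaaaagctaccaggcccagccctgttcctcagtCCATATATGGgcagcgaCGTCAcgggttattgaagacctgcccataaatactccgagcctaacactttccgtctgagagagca
Ccn1, chr2:237225690-237225939, minus strand: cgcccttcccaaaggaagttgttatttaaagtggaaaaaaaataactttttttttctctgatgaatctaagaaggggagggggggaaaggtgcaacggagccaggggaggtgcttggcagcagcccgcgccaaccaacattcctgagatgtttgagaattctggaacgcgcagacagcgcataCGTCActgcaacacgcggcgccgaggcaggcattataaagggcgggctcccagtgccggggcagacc

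A full CRE began 124 bases before the start of Dusp1 and 201 bases before that of Btg2, and Ier2 held one 66 bases before its start. Among all 33469 promoters of this length, 531 (1.59%) held a full CRE. The half-site was far more frequent, at 18.2% of all promoters. Egr2 held a CArG box 83 bases before its start beside a CRE half-site at 66 bases. The score gene Egr1 held CArG boxes 105 and 83 bases before its start, while 1.5% of all promoters held such a box. Ccn1 held only a half-site, 67 bases before its start, and Egr4 and Junb likewise held half-sites only. Fosb and Npas4 held none of the 4 motifs. Of the 11 promoters, 3 thus held a full CRE, 9 a half-site and 2 a CArG box. A site for EGR factors (GCGTGGGCG or GCGGGGGCG on either strand, in 2.85% of all promoters) was found only in Nr4a1 among the 11. These are matches of letters, not measured binding, and the absence of a match says only that the letters are not in this window.

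The 6 score genes differed between the groups by construction, and their values are given as a description. Npas4, a transcription factor induced by calcium entry into neurons, ran from 255 to 429 normalized counts in the high libraries (median 309) and from 82.2 to 141 in the low libraries (median 103). Arc, whose protein acts at the postsynaptic site on AMPA receptor traffic, ran from 1378 to 2481 (median 1486) against 563 to 957 (median 756). Nr4a1, an orphan nuclear receptor, ran from 1029 to 1517 (median 1184) against 654 to 905 (median 781). In each of these genes every high library lay above every low library.

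Fos, the classic partner of JUN proteins in the AP-1 factor, ran from 203 to 453 (median 303) in the high libraries and from 86.6 to 234 (median 129) in the low libraries, and 7 of 9 high libraries exceeded the highest low library. Egr1, a zinc finger factor, ran from 750 to 1425 (median 990) against 417 to 875 (median 686), and again 7 of 9 lay clear. Junb, an AP-1 subunit, ran from 1006 to 1651 (median 1307) against 674 to 1082 (median 860), and 8 of 9 lay clear.

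The ratio of group means was 2.97 for Npas4, 2.28 for Arc, 2.14 for Fos, 1.57 for Egr1 and Nr4a1 and 1.54 for Junb. The genes did not rank the libraries alike. Library 3, between the groups with a score of 8.92, had 1641 normalized counts of Junb and 324 of Fos, both among the values of the high libraries, but only 76.5 of Npas4 and 396 of Egr1, under the lowest low libraries. Library 19 of the low group likewise had the highest Fos (234) and Junb (1082) and the lowest Egr1 (417) of its group.

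The levels of some score genes also differed by library number, which was not tested. Over all 27 libraries, Fos averaged 257 ± 93.8 normalized counts (SD) in the 16 libraries up to 31 and 173 ± 71.4 in the 11 from 32, and Junb averaged 1197 ± 281 against 943 ± 213, whereas Egr1 went the other way with 709 ± 256 against 878 ± 196. Arc (1121 ± 506 and 1115 ± 390) and Npas4 (192 ± 105 and 210 ± 104) were close in both sets. Within the libraries from 32, all 6 genes were separated between high and low, including Fos (203 to 303 against 86.6 to 129) and Egr1 (916 to 1237 against 548 to 875). Within those up to 31, Fos (211 to 453 against 109 to 234) and Egr1 (750 to 1425 against 417 to 778) overlapped and the other 4 genes did not.

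**Figure D1:**
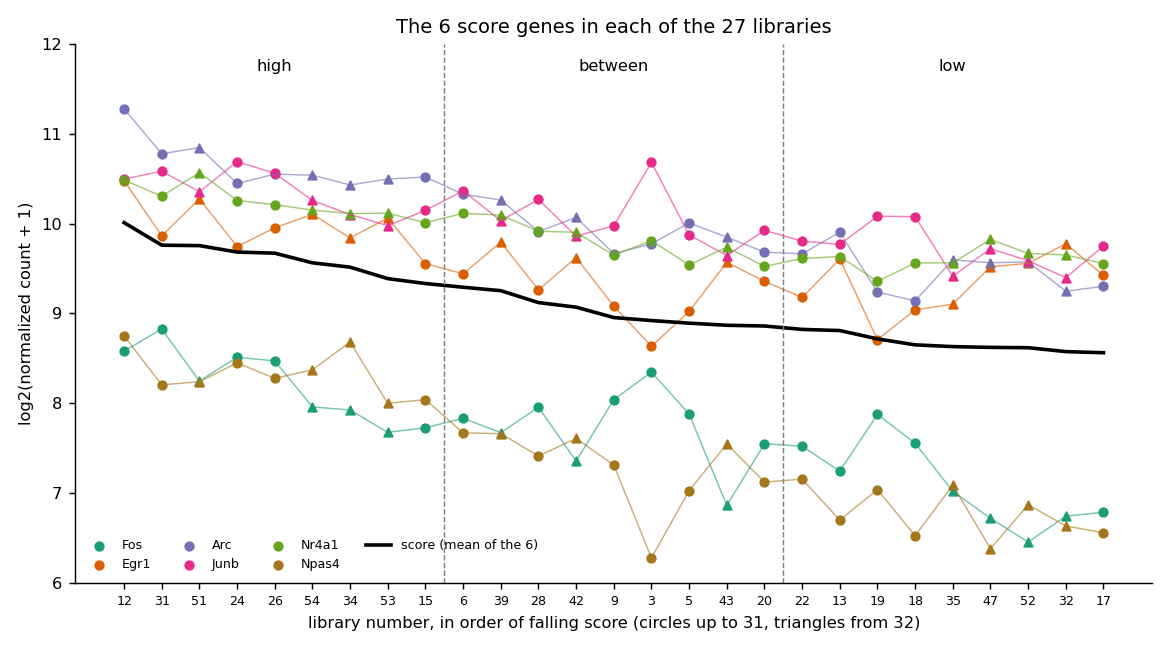
Log2(normalized count + 1) of the 6 score genes (coloured points) and their mean, the score (black line), in the 27 libraries ordered from the highest score to the lowest, with circles for library numbers up to 31 and triangles from 32. Arc, Nr4a1 and Npas4 fall along the order with no overlap between the 9 high and 9 low libraries, while Fos, Egr1 and Junb scatter more, as in library 3.

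Across the other genes, few followed the score. Of 11659 genes tested with edgeR's quasi-likelihood test, 3 were higher in the high libraries at a Benjamini-Hochberg adjusted p under 0.05 (0.0257% of those tested), namely Ccn1, Dusp1 and Btg2. None was lower, and none of the settings tried gave a lower gene. DESeq2's Wald test called 9 genes higher (the same 3 with Apold1, Egr2, Egr4, Fosb, Ier2 and Trib1) and 0 lower. At an unadjusted p under 0.05, edgeR gave 128 higher genes (1.1%) and 100 lower genes (0.858%), together 1.96% of the genes tested. The median log2 fold change of all genes was 0.0029, and 51.7% of genes lay above 0.

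**Figure D2:**
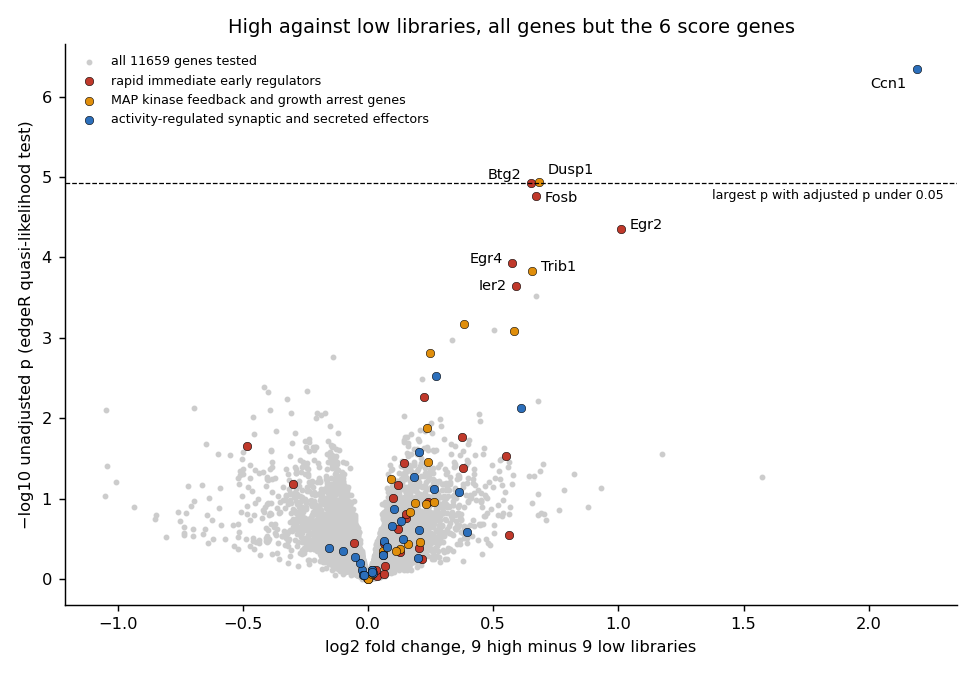
Log2 fold change (9 high minus 9 low libraries) against −log10 of the unadjusted edgeR p for the 11659 genes tested, with 3 gene lists in colour and a dashed line at the largest p whose adjusted value is under 0.05. Ccn1 stands alone at 2.19, and the points next to the line (Dusp1, Btg2, Fosb, Egr2, Egr4, Trib1, Ier2) belong to the lists of activity-regulated genes, while the gene of the next smallest p, Apold1, is on none of the lists.

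Ccn1 (Cyr61), a secreted matricellular protein and a serum-induced early gene, showed the largest change of the 3. It ran from 34.5 to 124 normalized counts in the high libraries (median 43.6) and from 7.67 to 29.5 in the low libraries (median 15.4). No high library overlapped a low one, and the 9 libraries between them ran from 12.2 to 47.2 (median 24.7). The log2 fold change was 2.19 ± 0.30 (SE, n = 9 and 9, edgeR quasi-likelihood adjusted p = 0.00537). Its raw counts were low, from 10 to 125 reads in the 18 libraries compared, so single values carry wide counting error.

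Library 24 had the highest Ccn1 and also the highest count in its group of Myh11, a smooth muscle myosin (1194), and of Igfbp2, which marks meningeal fibroblasts in the list used (1312). Without library 24 the log2 fold change of Ccn1 was 2.04 (adjusted p = 0.0106). Ccn2 (Ctgf), the closest relative of Ccn1 in the lists, ran from 178 to 468 in the high and from 182 to 417 in the low libraries, with wide overlap (log2 fold change -0.16 ± 0.19 SE, edgeR adjusted p = 1).

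Dusp1, a phosphatase that inactivates MAP kinases, ran from 572 to 975 normalized counts in the high libraries (median 697) and from 345 to 562 in the low libraries (median 455). The groups did not overlap, though the lowest high library lay only just above the highest low one. The log2 fold change was 0.68 ± 0.12 (SE, edgeR adjusted p = 0.0459). Over all 27 libraries Dusp1 had the highest Spearman rho with the score of any gene outside it whose mean over the libraries reached 50 normalized counts (0.868), given as a description since these libraries chose the gene.

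Btg2, an antiproliferative gene that slows the cell cycle and promotes mRNA decay, ran from 336 to 554 in the high libraries (median 428) and from 212 to 371 in the low libraries (median 268). Of the high libraries 7 of 9 exceeded every low library. The log2 fold change was 0.65 ± 0.11 (SE, edgeR adjusted p = 0.0459), with a rho of 0.839.

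Of these calls, Ccn1 rested on no single library: it passed in 18 of 18 fits that each left out 1 library, with log2 fold changes of 2.04 to 2.35. Dusp1 and Btg2 stood at the threshold. Dusp1 kept its call in 6 of these fits and Btg2 in 5, with adjusted p-values from 0.0292 to 0.138 and from 0.02 to 0.138, while their log2 fold changes stayed between 0.62 and 0.72 and between 0.6 and 0.71. Both calls were lost without library 12, 13, 17, 18, 24, 26, 31, 32, 35, 47, 51 or 52, and that of Btg2 also without library 34. The score genes bore on the calls as well. With Fos or Junb left out of the score, 1 low library was exchanged for another and only Ccn1 was called.

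With the library number (up to 31 or from 32) as a term in the model, 11818 genes were tested and 6 were called higher (0.0508%), the earlier 3 together with Egr2, Egr4 and Fosb. Again 0 were lower, with 121 lower genes (1.02%) at an unadjusted p under 0.05, and DESeq2 was not run with this term. Under this model the adjusted p was 0.00019 for Dusp1, 0.00113 for Ccn1 and 0.00793 for Btg2.

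Egr2, a zinc finger factor of the EGR family, ran from 134 to 313 normalized counts in the high libraries (median 208) and from 62.0 to 152 in the low libraries (median 96.8). Of the high libraries 6 of 9 lay above every low library. Its log2 fold change was 1.01 ± 0.20 (SE, edgeR adjusted p = 0.104 without the term and 0.00424 with it). The libraries between the groups covered almost the full span, from 59.6 to 301.

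Egr4, another member of that family, ran from 403 to 776 (median 578) against 301 to 568.3 (median 357), so the groups overlapped, with 6 of 9 high libraries clear. Its log2 fold change was 0.57 ± 0.12 (SE, edgeR adjusted p = 0.225 without the term and 0.00424 with it). Both groups were higher from 32 than up to 31. Up to 31 the high libraries averaged 522 ± 72.1 (SD, n = 5) and the low libraries 337 ± 25.7 (SD, n = 5), and from 32 the means were 667 ± 79.7 and 464 ± 90.8 (SD, n = 4 each). Within each set the high libraries lay above every low one.

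Fosb, an AP-1 subunit whose truncated product accumulates with repeated stimulation, ran from 124 to 288 (median 252) in the high libraries and from 131 to 170 (median 141) in the low libraries. Here 8 of 9 high libraries lay above every low one, and the other, library 15, was the lowest of all 18. The log2 fold change was 0.67 ± 0.12 (SE, edgeR adjusted p = 0.0506 without the term and 0.0471 with it). Library 15 was also the high library with the lowest score. In the fit of a slope on the score over all 27 libraries, the edgeR adjusted p of Fosb was 0.000194.

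Trib1, a pseudokinase that modulates MAP kinase signalling, was the third gene whose groups did not overlap, beside Ccn1 and Dusp1 (3 of 11659 genes, 0.0257%). It ran from 66.5 to 158 in the high and from 44.3 to 65.7 in the low libraries, yet did not pass the test (log2 fold change 0.66 ± 0.14 SE, edgeR adjusted p = 0.247). Library 12 alone stood at 158, with the next high library at 94.2, and without it the log2 fold change was 0.51 (adjusted p = 0.0924). In the slope over all 27 libraries Trib1 passed (edgeR adjusted p = 0.00103). Ier2, a short-lived nuclear regulator, ran from 117 to 232 against 78.6 to 149 (log2 fold change 0.59 ± 0.13 SE, edgeR adjusted p = 0.333). Not all genes passed in the slope over all 27 libraries. Egr2 and Egr4 (edgeR adjusted p = 0.0708 each) and Ier2 (0.0839) missed it. With the library number as a term in that slope, their edgeR adjusted p was 0.0011, 7.47e-05 and 0.0265.

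**Figure D3:**
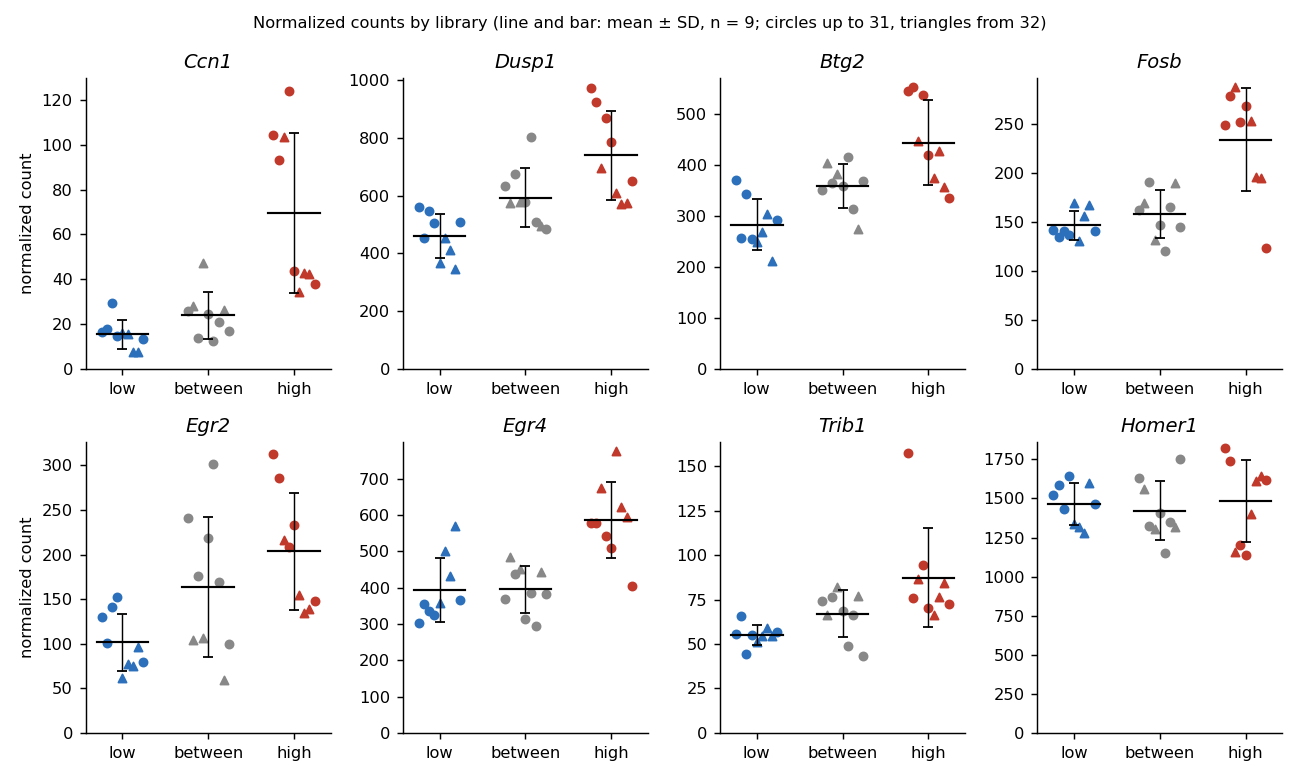
Normalized counts of 8 genes in the 9 low, 9 between and 9 high libraries, with circles for library numbers up to 31, triangles from 32, and lines and bars for the mean ± SD (n = 9). Ccn1, Dusp1 and Trib1 separate high from low without overlap, Btg2, Fosb, Egr2 and Egr4 overlap in part, and the means of Homer1 are 1481 in the high and 1465 in the low libraries, with wide overlap.

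Lists of related genes were then counted, without a test of any list as a whole. Of the 31 rapid immediate early regulators outside the score, all were tested, 1 rose (Btg2), 0 fell and 30 did not pass, against 0.0257% of all genes. Their median log2 fold change was 0.141, beside 0.0029 for all genes tested, and 27 of 31 lay above 0, beside 51.7% of all genes. At an unadjusted p under 0.05, 10 were higher, beside 1.1% of all genes, and 1 was lower, beside 0.858%.

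The members of that list were far from uniform. Beside Btg2, Fosb, Egr2, Egr4 and Ier2, the log2 difference was 0.56 ± 0.51 (SE) for Maff and 0.55 ± 0.23 (SE) for Sik1, a kinase that restrains CREB coactivators (edgeR adjusted p = 1 for each). Egr3 stood at 0.38, Csrnp1 at 0.22 and Jun at 0.14. Nr4a2 and Nr4a3, the relatives of the score gene Nr4a1, stood at 0.24 and 0.15, Fosl2 at 0.13, Jund at 0.06 and Fosl1 at 0.03. Nr4a3 ran from 336 to 538 in the high and from 276 to 456 in the low libraries, so the groups overlapped. The 4 members below 0 were Ier3 at -0.48, Amigo3 at -0.30, Klf6 at -0.06 and Myc at -0.01. Atf3, a stress-induced factor, was near the limit of detection, at 3.88 to 28.5 normalized counts in the high and 2.12 to 22.1 in the low libraries.

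The MAP kinase feedback and growth arrest genes were 24, of which 23 were tested and 1 had no count in any library. In this list 1 rose (Dusp1), 0 fell and 22 did not pass, against 0.0257% of all genes called higher. The median log2 fold change was 0.169, beside 0.0029 for all genes, and 22 of 23 lay above 0, beside 51.7% of all genes. At an unadjusted p under 0.05, 7 were higher, beside 1.1% of all genes, and 0 were lower, beside 0.858%.

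Dusp6, which inactivates ERK, ran from 327 to 606 (median 436) against 302 to 397 (median 339), with a log2 difference of 0.38 ± 0.10 (SE, edgeR adjusted p = 0.794). Gadd45g, a growth arrest and DNA demethylation factor, ran from 125 to 294 (median 201) against 88.4 to 170 (median 129), at 0.58 ± 0.15 (SE, edgeR adjusted p = 0.808). Both overlapped between groups, and both passed in the fit over all 27 libraries, where the slope on the score replaced the groups (edgeR adjusted p = 0.0201 for each). Ppp1r15a, which directs dephosphorylation of the translation factor eIF2, stood at 0.25 and Plk3 at 0.24. The log2 difference was 0.02 for Plk2, 0.02 for Rgs2 and 0.01 for Errfi1.

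The activity-regulated synaptic and secreted effectors, which tend to follow the early regulators, numbered 30, of which 27 were tested and 3 had no count. In this list 1 rose (Ccn1, itself a serum-induced early gene), 0 fell and 26 did not pass, against the same 0.0257% of all genes called higher. The median log2 fold change was 0.095, beside 0.0029 for all genes, and 20 of 27 lay above 0, beside 51.7% of all genes. At an unadjusted p under 0.05, 4 were higher, beside 1.1% of all genes.

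Vgf, a secreted neuropeptide precursor, ran from 1977 to 2730 (median 2494) in the high and from 1646 to 2353 (median 1908) in the low libraries, with 5 of 9 high libraries clear and a log2 difference of 0.27 ± 0.08 (SE, edgeR adjusted p = 1 without and 0.0653 with the library number as a term). Bdnf, a neurotrophin, ran from 284 to 420 (median 394) against 272 to 359 (median 320), at 0.20 ± 0.09 (SE, edgeR adjusted p = 1). Homer1, a postsynaptic scaffold gene, ran from 1139 to 1824 against 1280 to 1641, with the high libraries spanning the low ones at both ends (log2 difference 0.02 ± 0.09 SE, edgeR adjusted p = 1). Counts per gene sum the short activity-induced form of Homer1 with the long forms, and the several promoters of Bdnf, so these cannot be told apart. Nptx2 stood at 0.13, Scg2 at 0.10, Nptx1 at 0.02 and Nrn1 at -0.03.

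The remaining 3 lists held no gene past the test, where 0.0257% of all genes were called higher. The glucocorticoid-responsive genes (15 tested of 17) had a median log2 fold change of 0.014, and Fkbp5, a chaperone induced by corticosteroids, stood at 0.04. For Sgk1, a kinase of the same kind, the ranges were 412 to 770 in the high and 415 to 712 in the low libraries (log2 difference 0.07, with its sign turned to -0.05 and -0.08 when Fos or Junb was left out of the score). The heat shock genes (11 tested of 14) had a median of 0.044, with Hsph1 at 0.10 and Hspa8 at 0.01. The circadian clock genes (14 tested of 16) had a median of 0.029. The largest log2 difference among them was that of Rorb, at 0.40 ± 0.18 (SE, edgeR unadjusted p = 0.035, adjusted p = 1). Rorb, a nuclear receptor that is also in the list of excitatory neuron markers, was the only clock gene with an unadjusted p under 0.05. Of all genes, 1.1% were higher at that threshold. Per1, which is also an immediate early gene, ran from 572 to 951 against 580 to 899 (log2 difference 0.12), and Per2 stood at 0.08. A p that missed the threshold does not show that these genes were alike in both groups.

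**Figure D4:**
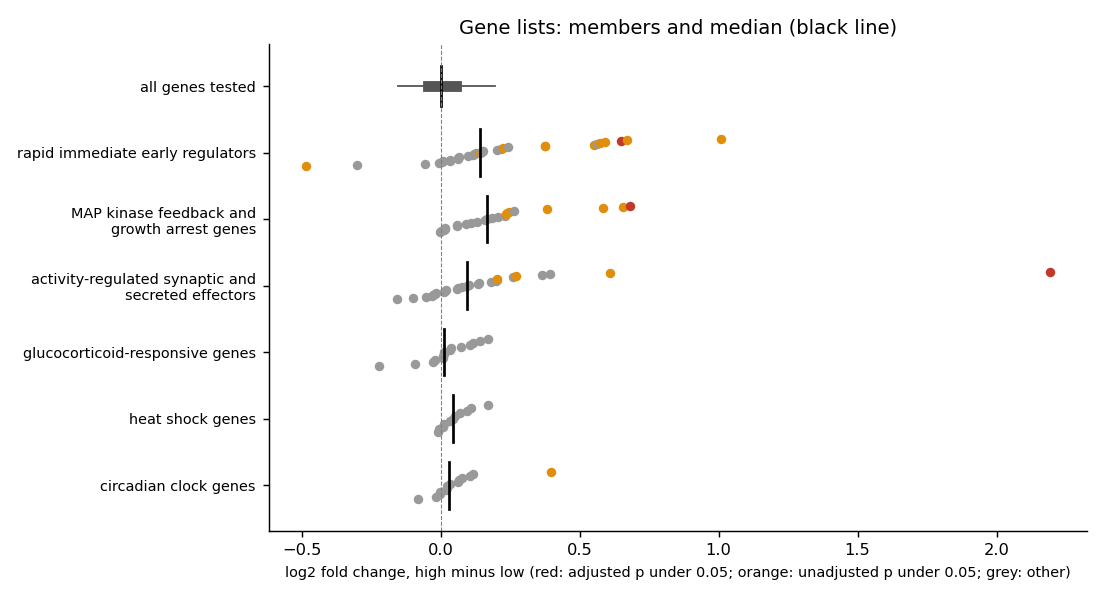
Log2 fold changes (high minus low) of the tested members of 6 gene lists, with the list's median as a black line and, at the top, the median, quartiles and 5th to 95th percentiles of all genes tested. The medians of the upper 3 lists are 0.141, 0.169 and 0.095, those of the glucocorticoid, heat shock and clock lists are 0.014, 0.044 and 0.029, and all 3 genes past the test lie in the upper lists.

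Each set of library numbers was then examined alone, with 5 against 5 libraries up to 31 and 4 against 4 from 32. In edgeR's quasi-likelihood test 0 of 11583 and 0 of 11890 genes passed, with 263 higher and 187 lower genes up to 31 and 169 higher and 194 lower genes from 32 at an unadjusted p under 0.05. For the genes called in the comparison of all 18 libraries, with or without the library number as a term, the folds within each set are a description, since the same libraries chose the genes. The log2 fold change up to 31 and from 32 was 2.13 and 2.25 for Ccn1, 0.70 and 0.64 for Dusp1, 0.65 and 0.64 for Btg2, 0.98 and 1.04 for Egr2, 0.63 and 0.52 for Egr4, and 0.75 and 0.58 for Fosb. Of the genes of the main comparison that were also tested in both sets, 2494 of 11551 (21.6%) were higher in both by sign alone. In the lists, these were 18 of the 31 rapid regulators, 19 of the 23 feedback genes and 14 of the 27 effectors.

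The test of a different contrast in the sets of library numbers found 0 of 11953 genes at an adjusted p under 0.05 and 600 (5.02%) at an unadjusted p under 0.05. For Ccn1 the unadjusted p of this interaction was 0.834, for Dusp1 0.667 and for Btg2 0.947 (edgeR quasi-likelihood test, n = 5 and 4 libraries a group).

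**Figure D5:**
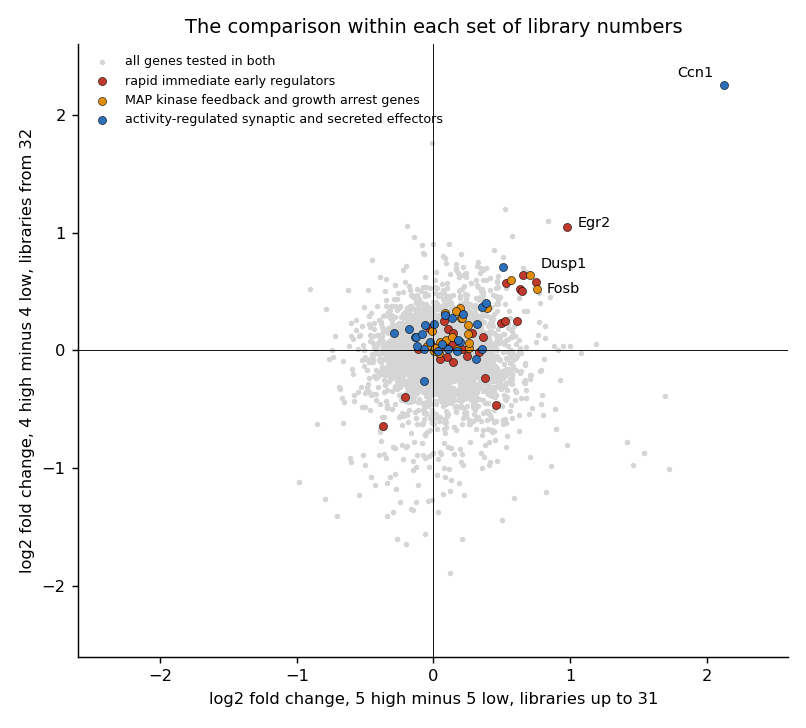
Log2 fold change (high minus low) in the libraries up to 31 (5 against 5, horizontal axis) and from 32 (4 against 4, vertical axis) for genes tested in both, with 3 gene lists in colour. Ccn1 lies at 2.13 and 2.25 and Egr2 at 0.98 and 1.04, in the upper right quadrant. That quadrant holds 19 of 23 feedback genes, 18 of 31 rapid regulators and 14 of 27 effectors, beside 21.6% of all genes. The other genes spread around 0 in every direction.

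Outside the lists, no gene passed the test. Apold1, an early gene of vascular endothelium, had the smallest p among them. It ran from 77.5 to 158 in the high and from 42.8 to 92.2 in the low libraries (log2 difference 0.67 ± 0.16 SE, edgeR adjusted p = 0.388) and was called by DESeq2 only. On the lower side, only genes with a symbol and a mean of at least 50 normalized counts over the 18 libraries were considered. The 5 of smallest p among them were Srp68, a subunit of the signal recognition particle (-0.14), Ptcd2, a mitochondrial RNA processing factor (-0.24), Spata9 (-0.40), LOC102549726 (-0.20) and Slc35b2, a Golgi transporter (-0.17), each with an edgeR adjusted p of 1. Srp68 ran from 847 to 970 in the high and from 889 to 1061 in the low libraries, so the groups overlapped. Among genes whose mean reached 50 normalized counts, it had the lowest rho with the score (-0.695). Mapk3, which codes for the kinase ERK1, was also among the 5 genes with the lowest rho (-0.596), from 1746 to 2005 against 1792 to 2307 normalized counts.

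No marker list of 13 cell types held a gene past the test, where 0.0257% of all genes passed. All 9 meningeal fibroblast markers tested lay below 0, with a median log2 difference of -0.41 and with sums of 413 to 8234 normalized counts (median 619) in the high and 611 to 5401 (median 2834) in the low libraries. All 7 endothelial markers tested lay below 0 too, at a median of -0.11, with sums of 1962 to 3252 against 2295 to 3647. The other medians ran from -0.045 for claustrum and layer 6b to 0.098 for GABAergic interneurons. The part of tissue makeup in the results was not tested. Among reference transcripts, Actb ran from 11640 to 15994 against 11758 to 15878 (log2 difference 0.06) and Gapdh stood at -0.01. Rn18s, the 18S ribosomal RNA, reached 19987 normalized counts in library 12, the library with the highest score, while the next high library had 2158. Library 20, between the groups with a score of 8.86, had 16899.5, and no low library exceeded 5243.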

How the data were processed

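Single-read RNA sequencing covered the medial prefrontal cortex of 27 Wistar rats. The values are raw counts per NCBI gene ID, as the authors deposited them, and no normalization had been applied. The submitters' processing notes name Trimmomatic, STAR and HTSeq without versions or settings. The genome build, annotation and strand setting are not given in the sources used here, so counts of overlapping, antisense or near-identical genes are uncertain, and 436 rows belong to genes with several loci. RefSeq symbols (GRCr8) matched 28157 of 36865 rows, which held 99.7% of all counts. No pair of the 351 library pairs was identical, and the lowest chi-square per gene of a pair was 2.55, above sampling noise. Totals ran from 4907255 to 12771309 reads.

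Size factors came from DESeq2 1.42.0, with a pseudocount of 1 for the score. The high and low libraries were compared by edgeR 4.0.16 (filterByExpr, TMM, quasi-likelihood F test, two-sided, no covariate), in R 4.3.3, leaving out the 6 score genes. The SE is the log2 fold change divided by the root of F. P-values were adjusted over all genes tested by the Benjamini-Hochberg method at 0.05. The library number term, the interaction, DESeq2's Wald test, other scores, other group sizes and fits without each library were alternatives. The model was tested on simulated counts. Promoters were searched and figures drawn in Python 3.11.15.

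The libraries, gene lists and tests were chosen with earlier results of these data known. Named genes were the score genes and list members past the test (for the other lists up to 4 each by p). Outside those, the 5 genes of smallest p in each direction were named. The 5 highest and 5 lowest by rho with the score, the extreme marker of each cell type and Actb, Gapdh, Rn18s and Bc1 were added. These choices of 5 by p and by rho were limited to genes with a symbol and a mean of at least 50 normalized counts. Apold1 and the other list members given outside this rule, such as Vgf, Bdnf and Homer1, were named after their values were seen. Anxiety scores of the rats were not used here.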

Additional observations from a re-analysis of the deposited data

Results flagged for a closer look

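Within each group of 9 libraries, the highest or lowest value was set against the rest by Dixon's gap test for the named genes. Of 120 groups tested, 17 had a library far from the others, where chance gives about 1 in 20 among groups and genes not chosen on their values. Here the groups were formed from the score genes, and many of the genes were named for their values, so that rate is no yardstick for this count.

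Among the genes of the comparison, library 12 stood apart in the high group with 158 normalized counts of Trib1 (next 94.2). It also had 2481 of Arc (next 1839), but Arc is a score gene whose values helped to choose the group, so this gap is a description only. Library 19 stood apart in the low group with 29.5 of Ccn1 (next 18.01) and 360 of Slc35b2 (next 309).

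Library 24 stood apart in the high group for vascular, meningeal and blood markers: it held 1194 normalized counts of Myh11 (next 281), 296 of Slc13a4 (next 111), 1312 of Igfbp2 (next 450), 49.3 of Alas2 (next 30.6) and 3910 of Hba-a1 (next 1926). In the low group library 19 held 823 of Myh11 (next 389) and library 32 held 234 of Slc13a4 (next 113).

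For neural and glial markers, library 26 was low for Foxp2 (114, next 188) and library 51 was high for Adora2a (122, next 70.1) in the high group. In the low group library 13 was high for Adarb2 (48.7, next 27.9) and Slc1a2 (550, next 279). Rn18s reached 19987 in library 12 (next 2158) and 5243 in library 47 of the low group (next 2307).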

How the results depend on the processing

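Against 3 genes called higher, DESeq2's Wald test called 9, the library number as a term 6, the slope on the score over all 27 libraries 7, the 6 highest against the 6 lowest libraries 6, and the 13 against the 13 only 1. The libraries up to 31 and those from 32 gave 0 each. Scores without Fos or without Junb gave 1 each and the score without Npas4 gave 5. These leave-one-gene-out scores, the block-centred score and the slope with the library number as a term (11 called, against 6 for the groups with that term) were added after the data were seen. Leaving out single libraries gave 1 to 4 higher genes. The count of lower genes was 0 under every alternative, and the other scalings, filters and scores kept the higher count within 1.5 times of 3. The mean z score, the score from TMM-normalized counts and the block-centred score chose the same 9 high and 9 low libraries. So did the scores without Arc and without Nr4a1. Fits with these scores repeat the main fit, so their agreement was fixed in advance and is no separate check. With the main fit and these repeats counted, Ccn1 was called in 36 of 38 fits, Dusp1 in 21 and Btg2 in 20. Each of these genes missed the threshold in both sets of library numbers alone. Of 864 values of 24 named genes under the alternatives, the repeats included, 806 kept direction and side of the threshold. The sign turned in 4: Hmox1 in the libraries from 32 (-0.00866) and without Fos in the score (-0.0367), and Sgk1 without Fos (-0.0499) and without Junb (-0.0761), and the cause was not tested. No paired analysis was possible because each library number is a different rat, found in 1 group only. With 10 to 125 reads of Ccn1 in the 18 libraries compared, depth limits the precision of its values.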
